A study of Mus musculus with 8 samples.

Results

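*Clu*, *Spon2* and *Moxd1* were examined in RNA-seq libraries from heart ventricles of mouse embryos at E15.5. These 3 genes, out of 53465 in the table, were chosen by their own values in this contrast, because each was much higher in all 4 *Nrg1* gain-of-function libraries than in wild type. Their fold changes are therefore given as a description, without a test. The gain-of-function embryos, called Nrg1GOF here, carry an *Nrg-1* transgene at the *Rosa26* locus together with a cardiac Cre driver, written Nkx2.5-Cre in the series title and Nkx5.5-Cre in the genotype field. Cre in this line acts in the *Nkx2.5* lineage of cardiac progenitors, so neuregulin-1 was overproduced by cells of that lineage. The comparison embryos are labelled WT, with no statement of whether they carried the driver or the transgene alone. Each group holds 4 libraries, each from the ventricle of a single heart according to the design text, although litter and strain are not given for these embryos. If the libraries of a group were not fully separate, p-values measure the spread between these libraries only.

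Neuregulin-1 is a ligand of ErbB receptors that normally passes from the endocardium to the myocardium and promotes the growth and differentiation of trabeculae. *Clu* encodes clusterin, also known as apolipoprotein J, a secreted chaperone that binds misfolded proteins and lipids, blocks the terminal complement complex and is taken up through receptors of the low-density lipoprotein receptor family. *Spon2* encodes mindin, a secreted matrix protein of the F-spondin family with a thrombospondin type 1 repeat, known as a ligand of integrins and as a recognition molecule of innate immunity. *Moxd1* encodes a protein of the endoplasmic reticulum related to dopamine beta-hydroxylase, with the fold of the copper-dependent monooxygenases but no settled substrate. All of them thus pass through the secretory pathway, and they belong to unrelated families.

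The libraries held 8038641 to 26786039 counts, with Nrg1GOF library 4 the shallowest. *Nrg1* itself, which checks the genotypes, was at 59.7 to 63.7 CPM (counts-per-million of the scaled library size) in Nrg1GOF and at 3.07 to 4.47 CPM in WT. Of 15580 genes tested, 28.7% were called, that is, had an adjusted p under 0.05 in the quasi-likelihood test of edgeR, with 15.9% higher and 12.8% lower in Nrg1GOF. That made 2474 genes higher and 1993 lower, a split that became 2874 and 1521 under scaling to the library total. WT libraries 1 and 2 stood apart from 3 and 4 in some of the values given later, and with each of these pairs summed to 1 sample 1548 genes were higher and 916 lower, 15.3% of 16150 tested.

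*Clu* (ENSMUSG00000022037) lies on the plus strand of GRCm38 chromosome 14, from 65968483 to 65981547. Its longest coding transcript has 9 exons and 1810 bases, and reads of 9 annotated transcripts were summed. In order from library 1 to library 4, Nrg1GOF had 298, 296, 272 and 326 CPM and WT had 79.1, 77.1, 69.0 and 76.9 CPM. The lowest Nrg1GOF library stood 3.44-fold above the highest WT library, so the groups were far apart. The means were 298 ± 22.1 and 75.5 ± 4.48 CPM (mean ± SD, n = 4), a ratio of 3.95 and a log2 fold change of 1.98 (SE 0.07).

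*Spon2* (ENSMUSG00000037379) lies on the minus strand of chromosome 5, from 33198184 to 33218455, and its longest coding transcript has 6 exons and 2045 bases. It was at 98.6, 108, 96.9 and 108 CPM in Nrg1GOF libraries 1 to 4, and at 43.9, 41.7, 41.5 and 39.0 CPM in WT libraries 1 to 4. The groups did not overlap, with a 2.21-fold step from the highest WT to the lowest Nrg1GOF library. Its means were 103 ± 5.84 and 41.5 ± 2.01 CPM (mean ± SD, n = 4), a ratio of 2.47 and a log2 fold change of 1.31 (SE 0.06). *Spon2* had the smallest change of the members and also the smallest scatter between libraries.

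*Moxd1* (ENSMUSG00000020000) lies on the plus strand of chromosome 10, from 24223517 to 24302790, with 12 exons and 3090 bases in its coding transcript. Taken from library 1 to library 4, Nrg1GOF had 43.9, 37.0, 46.7 and 32.6 CPM and WT had 8.94, 8.84, 3.80 and 6.43 CPM. *Moxd1* was thus the least abundant and most variable member, and still every Nrg1GOF library was at least 3.65-fold above every WT library. Its means were 40.0 ± 6.403 and 7.004 ± 2.43 CPM (mean ± SD, n = 4), a ratio of 5.72 and a log2 fold change of 2.53 (SE 0.23).

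A promoter window was matched for 1 member, *Moxd1*, which is why it is the window shown. It covers 250 bases before to 50 after the RefSeq start (GRCm38.p6, chr10:24223267-24223566, plus strand), with matches to the motifs searched in capitals.
*Moxd1* promoter: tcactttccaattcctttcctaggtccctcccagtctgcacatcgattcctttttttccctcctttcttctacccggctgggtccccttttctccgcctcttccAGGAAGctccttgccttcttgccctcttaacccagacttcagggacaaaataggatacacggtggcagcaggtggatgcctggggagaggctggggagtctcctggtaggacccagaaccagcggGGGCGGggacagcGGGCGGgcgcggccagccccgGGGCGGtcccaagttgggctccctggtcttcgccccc
Motifs were searched on both strands by their letters alone. Capitals mark GGGCGG, the GC box of Sp1-type factors, at positions 230, 243 and 264 of the window, and AGGAAG, an ETS-type core, at position 105, all on the plus strand. At least 1 GC box was present in 35.7% of all 32851 windows of this length and at least 3 in 9.85%, and AGGAAG in 35.4%. There was no match in this window to CCGGAA (14.9% of all windows), TGANTCA of AP-1 (7.81%), TATAAA (13.6%), AGATAA of GATA factors (11.2%), GGAATG of TEAD factors (14.7%), GAANNTTC of heat shock factors (7.86%) or the E-box CACGTG (7.15%). Only these letters in this window were examined, and binding was not measured. The window had a GC content of 61.7%, above that of 75.3% of all windows.

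**Figure D1:**
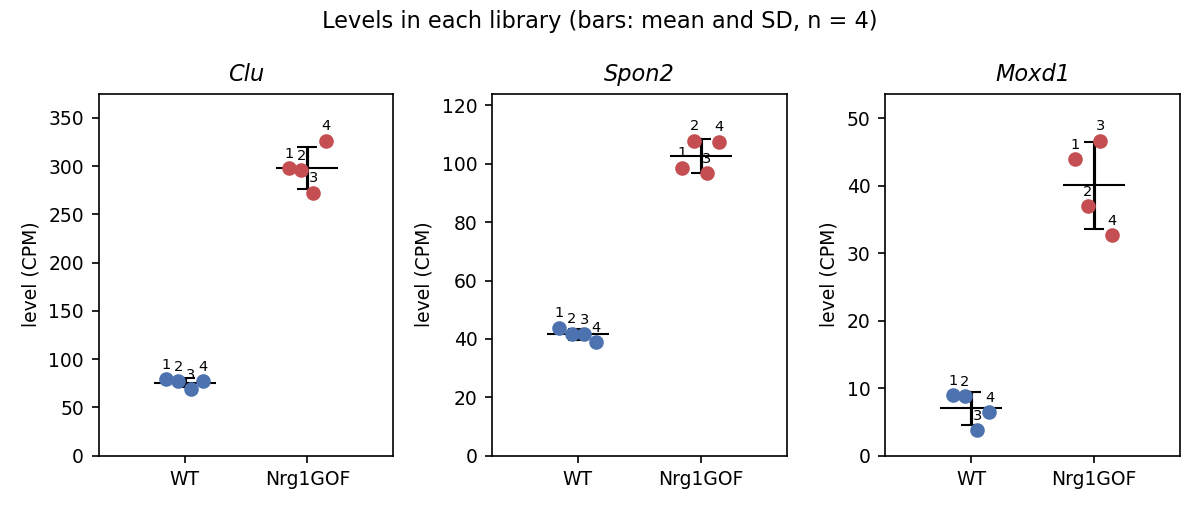
Level of each member (CPM, vertical axis from 0) in WT and Nrg1GOF, with points numbered by replicate and bars for the mean and SD (n = 4). *Clu* lies at 69.0 to 79.1 CPM in WT and 272 to 326 CPM in Nrg1GOF, and in no member do the groups overlap.

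In 3 of 3 members every Nrg1GOF library was above every WT library, as it was in 16.6% of all tested genes. Because the members were chosen for this property, nothing is read from that count. As steep risers the members were unequal. By log2 fold change *Moxd1* ranked 33, *Clu* 74 and *Spon2* 326 among the 15580 tested genes. Among the 12258 protein-coding genes with an average log2 CPM of at least 1, the ranks were 5 for *Moxd1*, 22 for *Clu* and 145 for *Spon2*. *Spon2* was therefore a moderate riser by size, with many genes above it.

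**Figure D2:**
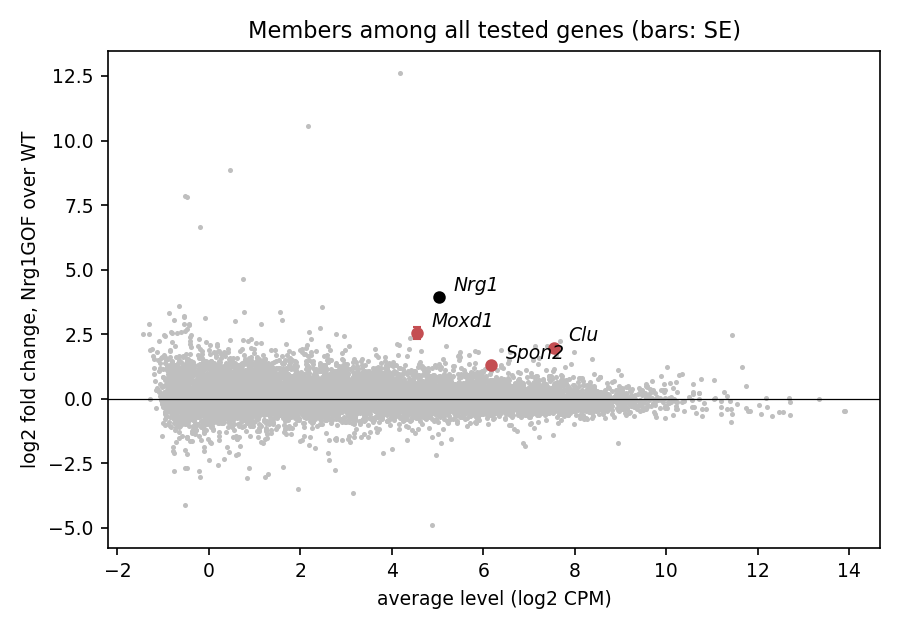
Log2 fold change of Nrg1GOF over WT (vertical axis) against average level in log2 CPM (horizontal axis) for all 15580 tested genes in grey, with the members in red and *Nrg1* in black (bars show the SE). *Moxd1* lies at 2.53, *Clu* at 1.98 and *Spon2* at 1.31, below *Nrg1* at 3.94.

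To compare the members with each other, CPM was divided by the length of the longest coding transcript. On this per-kilobase scale *Clu* was the most abundant, with 165 ± 12.2 in Nrg1GOF and 41.7 ± 2.47 in WT (SD over 4 libraries each). *Spon2* followed with 50.2 ± 2.86 and 20.3 ± 0.98, and *Moxd1* with 13.0 ± 2.07 and 2.27 ± 0.79 (SD over 4 libraries each). The order *Clu*, *Spon2*, *Moxd1* held in all 8 libraries, and no neighbours in it overlapped within a group. Against all tested genes on the same scale, *Clu* moved from percentile 89.8 in WT to 97.8 in Nrg1GOF, *Spon2* from 78.0 to 91.9 and *Moxd1* from 28.9 to 67.0. *Clu* was thus already an abundant transcript in the WT ventricle, whereas *Moxd1* was in the lower part of the range there.

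The proportions between the members differed by group. The per-kilobase ratio of *Clu* to *Spon2* was 3.098 to 3.42 in Nrg1GOF and 1.88 to 2.23 in WT. The ratio of *Spon2* to *Moxd1* went the other way, at 3.14 to 4.98 in Nrg1GOF and 7.14 to 16.5 in WT. The ratio of *Clu* to *Moxd1* overlapped between the groups, at 9.96 to 17.1 in Nrg1GOF and 14.9 to 31.0 in WT.

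Scatter within groups is also a description, since the members were chosen on the values of all libraries. The pooled within-group SD of log2 CPM was 0.098 for *Clu*, 0.076 for *Spon2* and 0.44 for *Moxd1*. Of all tested genes, 26.8% had a smaller SD than *Clu*, 14.9% than *Spon2* and 86.4% than *Moxd1*. For *Moxd1*, the 95% exact Poisson interval was 3.07 to 4.65 CPM in WT library 3 (94 counts) and 7.83 to 10.2 CPM in WT library 1 (234 counts). The intervals allow for counting error alone. Molecules were not tagged before amplification, so the counts may include copies and the intervals may be too narrow even for that error. WT libraries 1 and 2 averaged 8.89 CPM of *Moxd1* and WT libraries 3 and 4 averaged 5.12 CPM, a ratio of 1.74. The same ratio was 1.07 for *Clu* and 1.06 for *Spon2*.

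Across individual libraries the members did not keep a common order. In Nrg1GOF, library 3 had the most *Moxd1* and the least *Clu* and *Spon2*, and library 4 had the least *Moxd1* and the most *Clu*. In WT, library 3 was the lowest for *Clu* and *Moxd1*, and library 4 for *Spon2*. As a measure of likeness, profiles of log2 CPM over the 8 libraries were each centred on their mean and the root mean square difference was taken. This measure includes the gap between the genotypes, on which the members were chosen, so genes of similar fold change come out close. Nothing is read from it about likeness within a group. The difference was 0.35 between *Clu* and *Spon2*, 0.46 between *Clu* and *Moxd1* and 0.74 between *Spon2* and *Moxd1*.

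By this measure other genes were closer to each member than the members were to each other, and they are given without a test because they were picked for this likeness. The nearest to *Clu* were *Thbs4*, a thrombospondin of the matrix (0.089, with 246 to 288 CPM in Nrg1GOF and 58.0 to 74.8 CPM in WT), *Slco3a1*, an organic anion transporter (0.13), and *Sdc4*, the heparan sulfate proteoglycan syndecan-4 (0.13). The nearest to *Spon2* were *Spry4*, a feedback inhibitor of receptor tyrosine kinase signalling (0.077, with 55.9 to 59.5 CPM in Nrg1GOF and 22.0 to 25.9 CPM in WT), *Ankrd1*, a stress-responsive protein of cardiomyocytes (0.084), and *Medag* (0.090). The nearest to *Moxd1* were *Meox1*, a homeobox transcription factor (0.25, with 54.0 to 67.6 CPM in Nrg1GOF and 7.48 to 18.9 CPM in WT), *Fmo2*, a flavin-containing monooxygenase (0.31), and *Syt12*, a synaptotagmin (0.32). *Meox1* shared with *Moxd1* the highest Nrg1GOF value in library 3 and the lowest WT value in library 3. In bulk tissue, more cells of a type and more RNA per cell cannot be told apart.

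Marker sets of the cell types in the ventricle moved between the groups, and their part in the members' changes was not tested. The 10 cardiomyocyte markers, led by *Myh7*, were present in every library and summed to 38252 to 45236 CPM in Nrg1GOF and 48358 to 51375 CPM in WT. The 9 markers of fibroblasts and valve mesenchyme, led by *Col1a1*, summed to 5136 to 6693 CPM in Nrg1GOF and 2698 to 3636 CPM in WT, a ratio of means of 1.82. The 10 macrophage markers summed to 123 to 141 and 62.7 to 75.6 CPM, a ratio of 1.88, and the 9 atrial markers to 1745 to 1915 and 1095 to 1238 CPM, a ratio of 1.596. The sums of the 10 endothelial and 9 epicardial markers were higher by ratios of 1.14 and 1.28, and that of the 9 smooth muscle and pericyte markers lower, at 0.76. None of these groups of values overlapped between the genotypes, and no marker in these sets was at 0 in any library. The 9 neural crest and Schwann cell markers overlapped (11.001 to 21.9 and 13.9 to 18.8 CPM), with *Sox10* and *Foxd3* at 0 in at least 1 library. The 8 red blood cell markers overlapped as well, at 5436 to 8903 CPM in Nrg1GOF and 4420 to 13035 CPM in WT. Both WT libraries 1 and 2 were above both 3 and 4 in 7 of the 9 sums, and below them in the endothelial and neural crest sums. In proportion the difference was widest in the red blood cell sum (13035 and 12192 CPM, against 5506 and 4420 CPM), followed by the mesenchyme sum (3636 and 3616 CPM, against 2698 and 2738 CPM). *Moxd1* was also higher in WT libraries 1 and 2, and the part of this split in its values was not tested.

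The members were therefore also expressed per marker sum. *Moxd1* stood at 6.35 to 8.03 CPM per 1000 CPM of mesenchyme markers in Nrg1GOF and at 1.41 to 2.46 in WT. The mesenchyme sum was highest in Nrg1GOF library 3 and lowest in WT library 3, as was *Moxd1* among the libraries of each genotype. *Clu* stood at 6.98 to 7.32 CPM per 1000 CPM of cardiomyocyte markers in Nrg1GOF and at 1.43 to 1.59 in WT, so its spread in Nrg1GOF was narrower on this scale than in CPM. Per 1000 CPM of mesenchyme markers *Clu* was at 40.7 to 63.5 in Nrg1GOF and 21.3 to 28.1 in WT. *Spon2* differed from both in that its value per 1000 CPM of mesenchyme markers overlapped between the groups, at 14.5 to 21.0 in Nrg1GOF and 11.5 to 15.4 in WT. The overlap came from WT library 3 (15.4), with WT libraries 1, 2 and 4 at 12.1, 11.5 and 14.2, and the ratio of means was 1.36. Per 1000 CPM of cardiomyocyte markers *Spon2* did not overlap, at 2.31 to 2.67 in Nrg1GOF and 0.806 to 0.880 in WT. Per 1000 CPM of macrophage markers the groups did not overlap in any of the members, with ratios of means of 2.09 for *Clu*, 1.31 for *Spon2* and 3.08 for *Moxd1*.

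**Figure D3:**
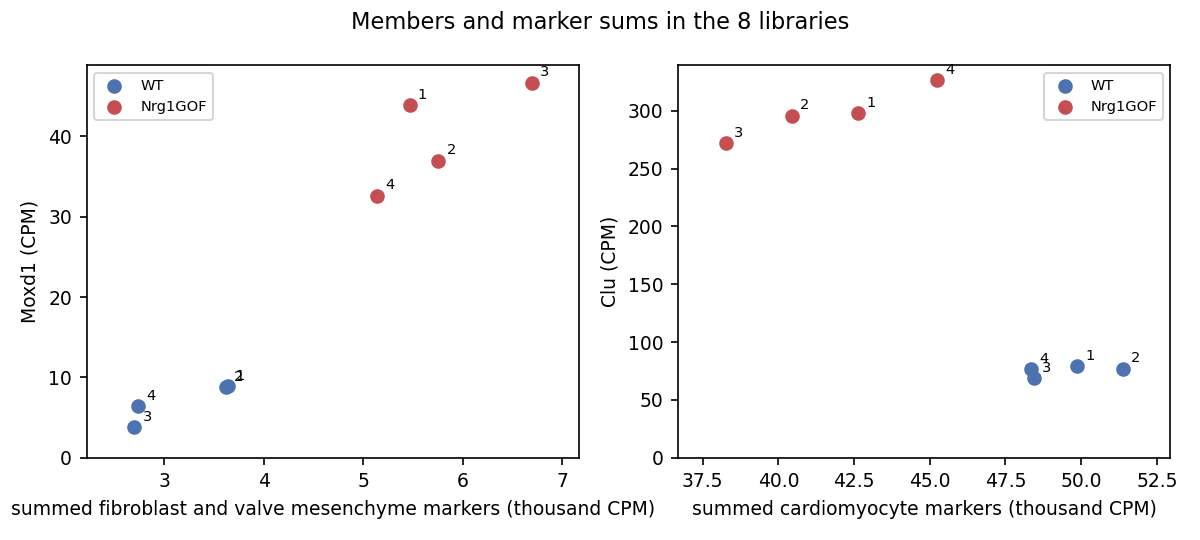
*Moxd1* (CPM) against the summed fibroblast and valve mesenchyme markers and *Clu* (CPM) against the summed cardiomyocyte markers (both sums in units of 1000 CPM), with the 8 libraries numbered by replicate and coloured by genotype. *Moxd1* reaches 46.7 CPM in Nrg1GOF library 3, where the mesenchyme sum is also highest, and *Clu* is higher in Nrg1GOF although the cardiomyocyte sum is lower.

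Genes related to each member by function were compared next, using the same test across all genes. For *Clu*, these were lipoprotein receptors that bind clusterin, other apolipoproteins and the extracellular chaperone alpha-2-macroglobulin. Of 17 genes 9 were expressed highly enough to be tested, and 5 rose, 0 fell and 4 were not called (55.6% higher against 15.9% of all genes). The median log2 fold change was 0.88, against -0.012 over all genes. The macrophage marker sum, higher by a ratio of 1.88, moved with this list, and its part was not tested. *Lrp8*, the apolipoprotein E receptor 2, rose from 1.48 ± 0.17 to 5.31 ± 0.54 CPM (SD, 4 libraries per genotype), with a log2 fold change of 1.85 (with SE 0.16 and adjusted p = 6.07e-05). *Apoe*, a lipid carrier of macrophages and other cells, rose from 138 ± 6.93 to 246 ± 25.7 CPM (log2 fold change 0.84, SE 0.08, adjusted p = 8.35e-05). *A2m* rose by 1.19 (SE 0.12, adjusted p = 0.000131) and *Trem2*, a receptor of macrophages, by 1.35 (SE 0.27, adjusted p = 0.00451), both on the log2 scale. The fifth gene that rose, *Lrp1*, a large endocytic receptor, was at 188 ± 16.3 and 101 ± 43.3 CPM (adjusted p = 0.0245). Its call was lost without Nrg1GOF library 1 or 2 or WT library 3 or 4 (adjusted p = 0.0625, 0.0621, 0.0504 and 0.0523). The receptor *Vldlr* was at 203 ± 14.0 CPM in Nrg1GOF and 200 ± 7.67 CPM in WT (SD over 4 libraries each), and *Lrp2*, or megalin, at 7.58 ± 1.44 and 6.33 ± 2.72 CPM, and neither was called (adjusted p = 0.852 and 0.564).

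Clusterin is also an inhibitor of complement. Of 19 complement components and inhibitors, 18 were matched in the table and 11 were tested. Of these 5 rose and 0 fell, with a median log2 fold change of 0.28 (45.5% higher, against 15.9% of all genes). The macrophage and mesenchyme marker sums were higher as well, by ratios of 1.88 and 1.82, and their part in this list was not tested. Most of the terminal components (*C6*, *C7*, *C8a*, *C8b* and *C9*) were too low to be tested. *Cfi*, the protease that inactivates complement fragments, rose from 2.22 ± 0.47 to 7.99 ± 0.63 CPM (SD, 4 libraries per genotype), with a log2 fold change of 1.86 (with SE 0.17 and adjusted p = 7.18e-05). *Cd55*, or decay-accelerating factor, rose by 1.00 (SE 0.14, adjusted p = 0.000787), and *Serping1*, the C1 inhibitor, by 0.61 (SE 0.08, adjusted p = 0.000350) on the log2 scale. *C4b* was called (adjusted p = 0.00226) at very low counts of 1.28 to 5 in WT and 4.18 to 29.1 in Nrg1GOF, so no fold is given, and 6 of its 8 values were not whole. *Cd59a*, which like clusterin blocks the terminal complex, was at 30.6 ± 4.33 and 29.0 ± 3.23 CPM (SD over 4 libraries each) and was not called (adjusted p = 0.718).

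As a chaperone, clusterin is induced by heat shock in many cells, so intracellular chaperones were examined as well. All 25 were tested, and 4 rose, 1 fell and 20 were not called, with a median of -0.0016. Over all genes 28.7% were called. With the WT pairs summed 4 of the 25 were called, beside 15.3% of all genes, so nothing is read from the share. Those that rose were *Serpinh1*, the collagen chaperone (log2 fold change 0.47, SE 0.06, adjusted p = 0.000385), *Hspa5*, the BiP chaperone (0.51, SE 0.12, adjusted p = 0.00986), *Hsp90b1*, also called GRP94 (0.39, SE 0.08, adjusted p = 0.00640) and *Hspa1b*, an inducible HSP70 (0.71, SE 0.14, adjusted p = 0.00371). The counts of *Hspa1b* were fractional in all 8 libraries and its value is uncertain. Its close paralog *Hspa1a* was not called (adjusted p = 0.1253). The mitochondrial chaperone *Hspd1* fell by 0.30 (SE 0.07, adjusted p = 0.00827). *Cryab* and *Hspb1*, small heat shock proteins of muscle, were not called (adjusted p = 0.810 and 0.600).

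For *Spon2*, the related genes were F-spondin, the R-spondins and other proteins with thrombospondin type 1 or reeler-related domains. Of 25 genes 22 were tested, of which 10 rose, 1 fell and 11 were not called, with a median log2 fold change of 0.58. These were 45.5% higher and 4.55% lower, against 15.9% and 12.8% of all genes. The mesenchyme marker sum was also higher in Nrg1GOF, by a ratio of 1.82, and its part in this list was not tested. The closest relative, *Spon1* (F-spondin), rose from 128 ± 13.1 to 170 ± 9.002 CPM (SD, 4 libraries per genotype), with a log2 fold change of 0.41 (with SE 0.08 and adjusted p = 0.00352). The change of *Spon1* was thus smaller than the 1.31 of *Spon2*. *Rspo2*, a secreted enhancer of Wnt signalling, rose by 1.91 (SE 0.23, adjusted p = 0.000290). Its counts ranged over 13 to 19 in the WT libraries and over 25 to 62 in the Nrg1GOF libraries. *Unc5b*, a netrin receptor, rose by 0.76 (SE 0.09, adjusted p = 0.000348), *Thsd4*, which binds fibrillin, by 1.10 (SE 0.15, adjusted p = 0.000561) and *Adgrb2* by 0.92 (SE 0.13, adjusted p = 0.000677), all on the log2 scale. *Sema5b*, a semaphorin, was the gene that fell, by 1.09 (SE 0.26, adjusted p = 0.0111).

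Mindin binds integrins, and 9 integrin subunits of the kinds that bind it or pair with those that do were tested. Of these 8 rose and 0 fell (88.9% higher, against 15.9% of all genes), with a median log2 fold change of 0.76. With the WT libraries summed in pairs, 5 were called, where 15.3% of all genes were. *Itgb1*, the common beta subunit, rose from 968 ± 63.5 to 1297 ± 118 CPM (SD, 4 libraries per genotype), with a log2 fold change of 0.42 (with SE 0.08 and adjusted p = 0.00297). *Itga5*, of the fibronectin receptor, rose by 0.28 (SE 0.05, adjusted p = 0.00200) and *Itga9*, which binds tenascin, by 1.00 (SE 0.14, adjusted p = 0.000664) on the log2 scale. *Itgal*, of leukocytes, rose by 1.09 (SE 0.15, adjusted p = 0.000605), from 3.42 ± 0.42 to 7.25 ± 0.93 CPM (SD over 4 libraries each). The leukocyte subunit *Itgax* was at 0.627 ± 0.288 and 0.437 ± 0.196 CPM and was not called (adjusted p = 0.568). The part of the higher macrophage marker sum given above in the values of leukocyte subunits was not tested.

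For *Moxd1*, the other copper monooxygenases and genes of copper and ascorbate supply were tested. Of 22 genes 19 were tested, of which 3 rose, 3 fell and 13 were not called, with a median log2 fold change of 0.081. The shares of 15.8% higher and 15.8% lower were near those of all genes, 15.9% and 12.8%. Summing the WT libraries in pairs left 2 of the 19 called, beside 15.3% of all genes. The closest relative, *Dbh*, dopamine beta-hydroxylase, was at 0.95 ± 0.41 CPM in Nrg1GOF and 0.87 ± 0.35 CPM in WT (SD over 4 libraries each) and was not called (log2 fold change 0.20, SE 0.38, adjusted p = 0.746). *Pam*, which amidates peptides such as hormones and is abundant in heart muscle, was at 1803 ± 115 and 1556 ± 86.8 CPM (SD over 4 libraries each), a small rise of 0.21 (SE 0.07, adjusted p = 0.0348). *Cp*, the copper-carrying ferroxidase ceruloplasmin, rose by 0.85 (SE 0.21, adjusted p = 0.0122) and *Heph*, its membrane-bound relative, by 0.28 (SE 0.09, adjusted p = 0.0441). *Steap3*, a metalloreductase, fell by 0.40 (SE 0.07, adjusted p = 0.00173), and the metallothioneins *Mt1* and *Mt2* fell by 0.56 (SE 0.14, adjusted p = 0.0138) and 0.77 (SE 0.23, adjusted p = 0.0324). The calls of *Pam*, *Heph* and *Mt2* were lost when any of several single libraries was left out, among them Nrg1GOF library 1 (adjusted p = 0.0911, 0.120 and 0.0868). Without Nrg1GOF library 1, Nrg1GOF library 2 or WT library 4, 3 of these 19 genes were called, where the share over all genes was 24.2%, 20.4% and 22.2%. With the replicate number as a block, 9 of the 19 were called, where the share over all genes was 29%. The importer *Slc31a1* and the ascorbate transporter *Slc23a2* were not called (adjusted p = 0.280 and 0.994).

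Genes of catecholamine synthesis and transport, the setting in which *Dbh* works, were compared for the same reason. Of 17 genes 11 were tested, of which 1 rose and 4 fell, with a median log2 fold change of -0.19. These were 9.09% higher and 36.4% lower, against 15.9% and 12.8% of all genes. With the WT pairs summed 2 of the 11 were called, near the 15.3% of all genes in that comparison. *Th* and *Pnmt*, enzymes at either end of the pathway, were too low to be tested. *Ddc*, the aromatic amino acid decarboxylase, fell from 177 ± 46.8 to 54.8 ± 10.9 CPM (SD, 4 libraries per genotype), with a log2 fold change of -1.71 (with SE 0.19 and adjusted p = 0.000213). *Gch1*, which starts the synthesis of the hydroxylase cofactor, fell by 0.55 (SE 0.14, adjusted p = 0.0145), and *Maob*, a monoamine oxidase, by 0.34 (SE 0.08, adjusted p = 0.0137). Neither was called with the WT pairs summed (adjusted p = 0.0705 and 0.0913). *Slc18a1*, a vesicular transporter, was called higher (adjusted p = 0.00594) on 1 to 7 counts per WT library. Of 49 related, neighbouring and like genes named here, 21 overlap a gene on the opposite strand, and the strand setting of the counting is not given in the sources used here. The members themselves overlap no other annotated gene.

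**Figure D4:**
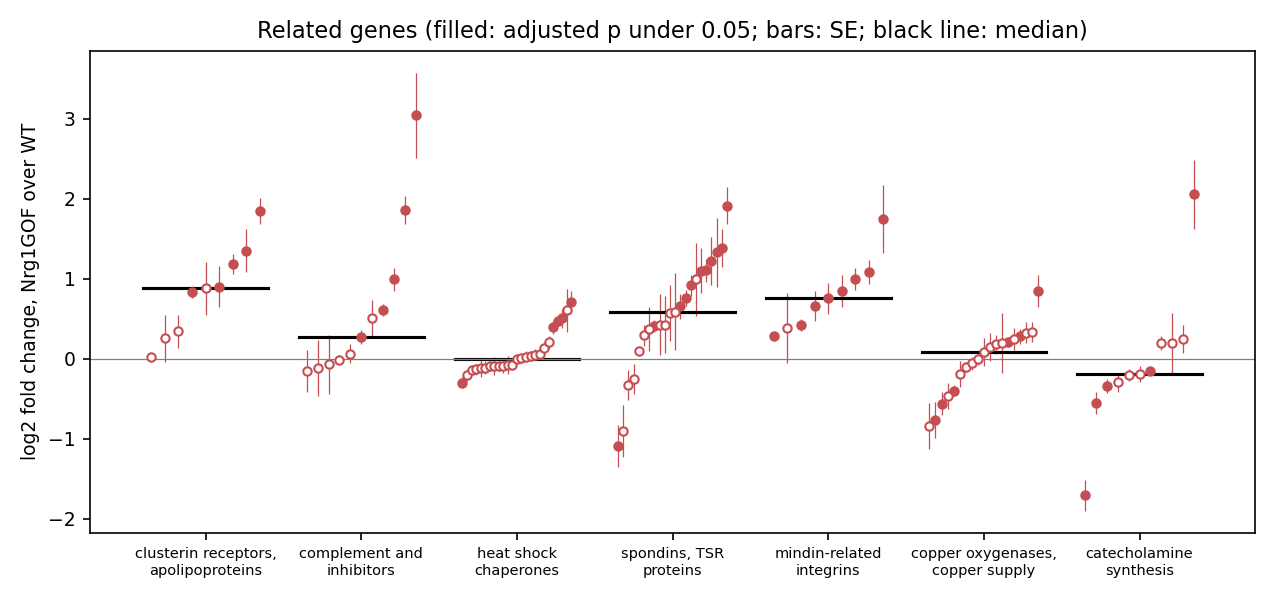
Log2 fold change of Nrg1GOF over WT (vertical axis) for the tested genes of the 7 related lists, filled where the adjusted p is under 0.05, with the SE as bars and the median of each list as a black line. Medians run from -0.19 for catecholamine genes to 0.88 for clusterin receptors and apolipoproteins.

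Neighbouring genes on the chromosome were compared last, since position was not used to choose the members. The 5 nearest protein-coding genes on either side of each member gave 30 neighbours, within 612431 bases, of which 20 were tested and 7 called, 3 higher and 4 lower. With 28.7% of all tested genes called, nothing is read from this count about the neighbourhoods. Next to *Clu*, *Scara3*, a scavenger receptor 14548 bases away, rose from 8.91 ± 3.16 to 23.5 ± 6.64 CPM (SD, 4 libraries per genotype), with a log2 fold change of 1.42 (with SE 0.26 and adjusted p = 0.00301). Farther out *Esco2*, a cohesin acetyltransferase of S phase, fell by 0.71 (SE 0.07, adjusted p = 0.000133), *Scara5*, a ferritin receptor, by 0.73 (SE 0.16, adjusted p = 0.00679) and *Ephx2*, an epoxide hydrolase, by 0.40 (SE 0.09, adjusted p = 0.00935).

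Around *Spon2*, 1 of 8 tested neighbours was called, where the share over all genes was 28.7%. This was *Depdc5*, a subunit of the GATOR1 complex, which fell by 0.27 (SE 0.06, adjusted p = 0.00705). The nearest tested neighbour, the transcriptional corepressor *Ctbp1* at 29268 bases, was at 224 ± 14.0 and 230 ± 5.32 CPM (SD over 4 libraries each) and was not called (adjusted p = 0.626).

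Beyond *Moxd1* on the side of higher coordinates, the nearest coding genes were *Ccn2* and *Enpp1*, and both rose. *Ccn2*, the matrix-associated protein once named connective tissue growth factor, lies 292652 bases from *Moxd1* and went from 90.3 ± 0.73 to 293 ± 42.0 CPM (SD, 4 libraries per genotype), with a log2 fold change of 1.69 (with SE 0.09 and adjusted p = 3.85e-06). *Enpp1*, which makes pyrophosphate outside the cell, rose by 1.32 (SE 0.16, adjusted p = 0.000354), whereas the next gene, *Enpp3*, was not called (adjusted p = 0.773). On the other side *Stx7*, a syntaxin of endosomes at 33295 bases, was at 70.3 ± 4.89 and 70.4 ± 3.29 CPM (SD over 4 libraries each) and was not called (adjusted p = 0.998). The 4 genes beyond it were not tested because of low counts.

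**Figure D5:**
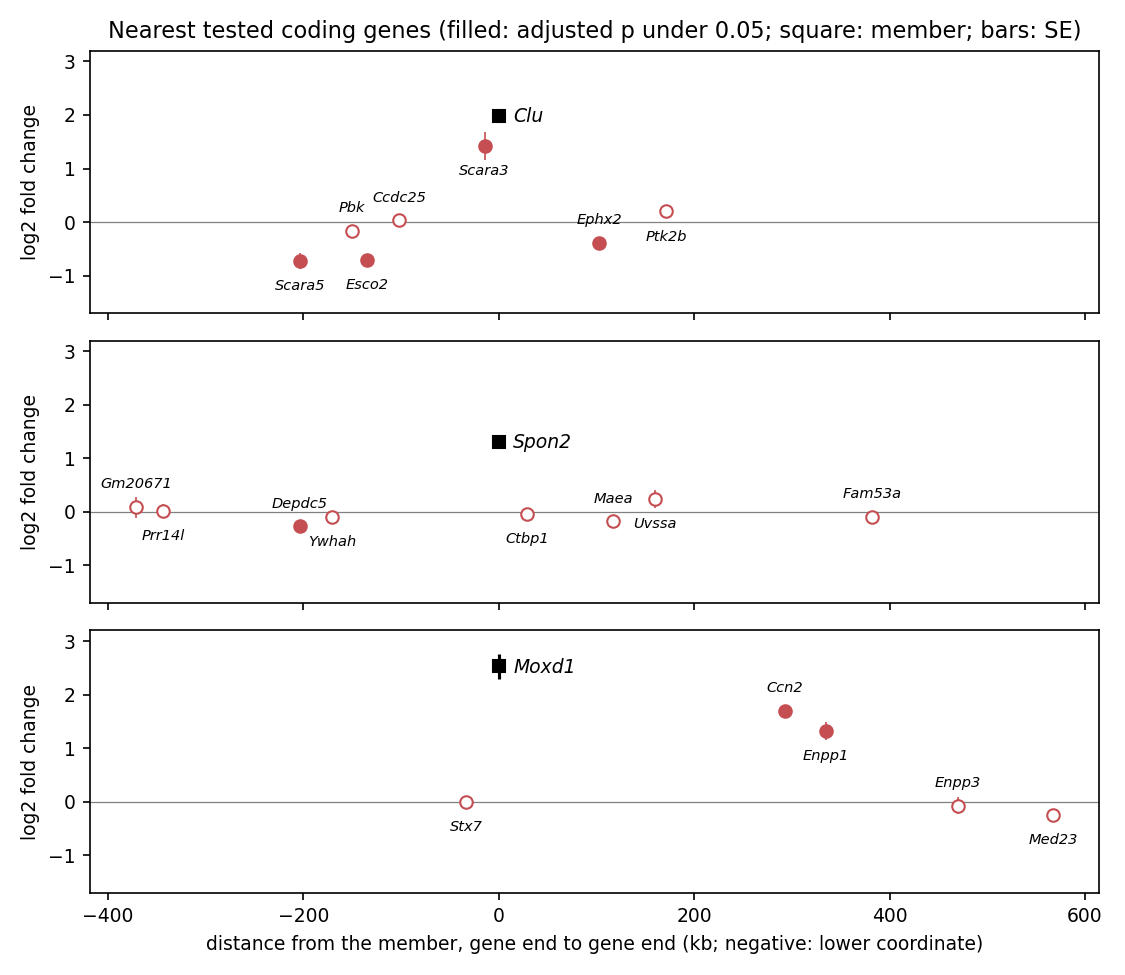
Log2 fold change of Nrg1GOF over WT (vertical axis, SE as bars) for the tested neighbours of each member, by distance from the member in kilobases, filled where the adjusted p is under 0.05, with the member as a square. Higher neighbours are *Scara3* at 1.42 beside *Clu* and *Ccn2* at 1.69 and *Enpp1* at 1.32 beside *Moxd1*, and no tested neighbour of *Spon2* was called higher.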

How the data were processed

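RNA-seq values for 8 libraries (4 Nrg1GOF, 4 WT, ventricles at E15.5, 100 ng RNA, directional poly(A) libraries, single reads of 60 bases) were analysed. The values are gene-level expected counts of RSEM as the authors deposited them, not scaled for depth or length, against GRCm38 with Ensembl release 91 as named by the table. The submitters' processing notes name cutadapt and RSEM 1.3.1. The aligner and strand setting are not given in the sources used here. Between 8.42% and 13.2% of values of a library were not whole, and all counts were rounded.

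Genes were kept by filterByExpr, scaled by TMM and compared with the quasi-likelihood test of edgeR 4.0.16 (R 4.3.3, two-sided, Benjamini-Hochberg over 15580 genes, threshold 0.05), in a model of genotype alone, following the generalised linear model named in the study's methods. SEs were obtained from the log2 fold change and the F statistic. Log2 CPM for profiles used a prior count of 2. The code was tested on simulated data. Depth was 8038641 to 26786039 counts, where 3 counts stand for 0.375 CPM in Nrg1GOF library 4 and 0.115 to 0.164 CPM elsewhere.

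Symbols were matched for 53274 of 53465 identifiers. Coordinates, lengths and neighbours came from GENCODE M21 (GRCm38), a later release than that behind the counts. The promoter window is from RefSeq (GRCm38.p6).

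Members and gene lists were chosen with earlier results of these data known. Named genes were the members, *Nrg1*, up to 4 called genes per direction of each of 7 related lists with the lowest adjusted p, called neighbours and the 3 genes most like each member. Others (*Lrp1*, *Vldlr*, *Lrp2*, *Cd59a*, *Hspa1a*, *Cryab*, *Hspb1*, *Spon1*, *Dbh*, *Slc31a1*, *Slc23a2*, *Itgax*, *Ctbp1*, *Stx7* and *Enpp3*) were added after their values were seen. Motifs and ratios to marker sums were also chosen then. Some genes of the lists are counted but not reported here by name. Alternatives were other scalings, no filter, DESeq2 1.42.0, a replicate block, another prior count, summed WT pairs and leaving out each library.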

Additional observations from a re-analysis of the deposited data

Results flagged for a closer look

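In groups of 4 libraries each highest and lowest value was compared with the rest by Dixon's test at its 95% critical value. A library stood apart in 5 of 126 groups, where 1 in 20 gives 6.3, and none concerned *Clu*, *Spon2* or *Moxd1*. The total of Nrg1GOF library 4 was 8038641 counts, against 20578081 to 22547833 in the other Nrg1GOF libraries. *Ddc* was at 71.0 CPM in the same library, against 48.0 to 51.1 CPM in the others of its group. *Hspa1b* was at 5.60 CPM in Nrg1GOF library 3, against 6.31 to 6.43 CPM. *Depdc5*, a neighbour of *Spon2*, was at 40.6 CPM in Nrg1GOF library 1, against 37.3 to 37.6 CPM. *Itga5* was at 249.6 CPM in WT library 3, against 236 to 238 CPM.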

How the results depend on the processing

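Of 717 values recomputed, 670 gave the same direction and call, or a count within 1.5 times, 7 counts moved, 40 calls of single genes were lost and 0 values reversed. Leaving out each library in turn gave log2 fold changes of 1.94 to 2.03 for *Clu*, 1.27 to 1.34 for *Spon2* and 2.32 to 2.68 for *Moxd1*, the last lowest without WT library 3. The other alternatives gave 1.98 to 2.02, 1.3 to 1.35 and 2.51 to 2.58. With the WT pairs summed, called genes fell to 2464, called integrin subunits to 5, copper-related genes to 2 and catecholamine genes to 2. This alternative has fewer samples. Leaving out a library gave 3239 to 4261 called genes and 3 to 6 copper-related calls, the 3 without Nrg1GOF library 1 or 2 or WT library 4. Of 40 related and neighbouring genes chosen by the rule, 30 kept their call throughout. Of those named in the text, *Pam*, *Heph* and *Mt2* (and, outside the rule, *Lrp1*) lost theirs without single libraries, and with the WT pairs summed so did *Pam*, *Heph*, *Mt2*, *Mt1*, *Gch1*, *Maob*, *Hspd1*, *Sema5b* and *Ephx2*. The causes were not tested.

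The replicate block gave 4524 called genes (29% of those tested) and log2 fold changes of 1.98, 1.3 and 2.55 for *Clu*, *Spon2* and *Moxd1*. It called 9 of 19 copper-related genes and kept the calls of those of the 40 genes that are named in the text. Deviations of libraries with the same number correlated at 0.049 to 0.20 across genes, and 4 of 8 libraries correlated best with their own number, so the numbers were not taken as pairs. Depth limits genes of few counts most in Nrg1GOF library 4.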
